A study of Mus musculus with 6 samples.

Results

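The heparan sulfate genes described here are 10 genes whose products make or edit this sugar chain: Ugdh, Ext1, Ext2, Ndst1, Ndst2, Hs2st1, Hs6st1, Hs6st2, Hs3st1 and Sulf1. They were chosen by name, and every probe set that the array annotation assigns to exactly one of these symbols was taken. This gave 12 probe sets for 8 of the 10 genes, out of 22626 probe sets. Of these, 20380 were assigned to a single gene, and they cover 12393 genes. Ndst1 and Sulf1 were not analysed here. RNA was measured in lenses of 1-day old Pax6 heterozygous (Pax6 lacZ/+) mice and 1-day old wild type mice, with n = 3 mice per genotype and both lenses of a mouse pooled in each sample. The heterozygous mice kept 1 intact Pax6 allele, the gene of a DNA-binding regulator in eye and brain development, and lacZ replaced the other allele. The change is carried by every tissue and not by the lens alone. The methods give NMRI as the background of the wild type mice and state no strain for the heterozygous ones. The samples of each genotype carry replicate numbers 1 to 3. Signals are RMA intensities on the linear scale, given as mean ± SD, and differences are log2 values of heterozygous minus wild type. They were tested with limma and adjusted over all 22626 probe sets by the Benjamini-Hochberg method. A signal depends on the probes as well as on the RNA, so that levels of different probe sets are not set against each other.

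Heparan sulfate is a linear sugar chain attached to core proteins of the cell surface and the basement membrane, such as the lens capsule. The chain is polymerized in the Golgi from sugar nucleotides and is then modified stepwise by N-deacetylase/N-sulfotransferases, an epimerase and 2-O-, 6-O- and 3-O-sulfotransferases, while Sulf enzymes remove 6-O-sulfate outside the cell. Its sulfate pattern sets how fibroblast growth factors (FGFs) meet their receptors, and FGF signaling drives lens fiber differentiation.

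The promoter of Hs3st1 is shown because Hs3st1 had the largest difference between the genotypes among the 8 genes at their brightest probe sets. That of Ext2 is shown because its signal, though near background, was highest in replicate 2 of both genotypes, as that of Hs3st1 also was. Both are the 250 bases before the RefSeq start in build GRCm38.p6, read 5′ to 3′ on the strand of the gene, the minus strand in both cases. Hs3st1 lies at chr5:39644632-39644881 and Ext2 at chr2:93822569-93822818. Capitals mark CG dinucleotides.
Hs3st1: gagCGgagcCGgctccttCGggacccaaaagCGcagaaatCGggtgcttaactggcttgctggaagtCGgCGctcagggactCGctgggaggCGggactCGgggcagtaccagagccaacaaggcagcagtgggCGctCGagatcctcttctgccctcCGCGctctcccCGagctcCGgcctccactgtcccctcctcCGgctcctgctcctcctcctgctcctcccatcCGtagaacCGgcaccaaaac
Ext2: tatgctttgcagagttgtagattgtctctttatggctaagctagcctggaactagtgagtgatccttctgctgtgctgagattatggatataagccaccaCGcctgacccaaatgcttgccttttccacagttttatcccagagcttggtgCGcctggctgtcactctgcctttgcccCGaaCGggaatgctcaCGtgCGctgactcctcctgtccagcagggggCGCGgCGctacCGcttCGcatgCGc
The Hs3st1 window held 19 CG dinucleotides and 66.0% G or C, and the Ext2 window held 12 and 54.8%. Promoter windows matched 7 of the 8 measured genes, in 8 windows. These windows had a median of 20 CG dinucleotides, with a range of 7 to 37, against a median of 6 over 32841 promoter windows of the same length. TTCACGC, letters from the Pax6 paired domain consensus, was searched on both strands and was in 0 of the 8 windows and in 1.04% of all windows. GGGCGG, a GC box, was in the windows of 4 genes, Ugdh, Ndst2, Hs2st1 and Hs6st1, and in 32.7% of all windows. These matches are a description of the letters and not of binding.

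The labelled genotype, the tissue and RNA controls were checked on the arrays. Pax6 had signals of 942, 1170 and 882 in heterozygous lenses, against 1169, 1760 and 963 in wild type lenses. The log2 difference was −0.34 ± 0.24 (SE, limma adjusted p = 1.00), and the genotypes overlapped. Pax6 was lower in the heterozygous sample of all 3 numbered pairs, with differences of −0.31, −0.59 and −0.13, and with the replicate block the interval was −0.64 to −0.04 (limma unadjusted p = 0.0315, adjusted p = 0.509). Of 11 measured lens markers, 10 had a median signal of at least 50, and their summed signal was 90369 to 109697 in heterozygous and 93294 to 113589 in wild type lenses. The log2 difference was above 0 for 2 of the 11, with a median of −0.06. Marker lists of neighboring tissues gave sums of 1297 to 1849 in heterozygous and 1001 to 1410 in wild type lenses for 12 retina genes, of which 10 had a log2 difference above 0. For 12 endothelium genes the sums were 1142 to 3721 in heterozygous and 875 to 2075 in wild type lenses, with 11 above 0. The highest endothelium sum was that of replicate 1 in both genotypes. Replicates 2 and 3 had 1224 and 1142 in heterozygous lenses, against 1004 and 875 in wild type lenses. A median signal of at least 50 was reached by 7 retina, 5 endothelium, 3 macrophage, 4 mesenchyme and 4 pigment genes. The median difference was 0.31 for the retina list, 0.43 for endothelium, 0.29 for 12 macrophage genes (10 above 0), −0.04 for 12 mesenchyme genes (5 above 0) and −0.05 for 7 pigment genes (3 above 0), and 0 markers of any list passed the adjusted threshold. Of the 7 cornea markers, 0 had a median signal of at least 50. Both arrays with replicate number 2 stood apart in the actin control, whose 5′ probe set read 2899 in the heterozygous and 2642 in the wild type sample. The other 4 arrays read between 778 and 861. The ratio of the 3′ to the 5′ actin probe set was 2.02 in the heterozygous and 2.11 in the wild type replicate 2, and 3.11 to 3.27 in the other 4. For 18S RNA this ratio was 0.653 in the heterozygous and 0.576 in the wild type replicate 2, against 1.91 to 2.26, while for Gapdh it was 1.54 and 1.49, against 1.56 to 1.69. The 18S ratio rests on 3′ signals of 58.2 to 122 and 5′ signals of 37.3 to 101. The middle 18S probe set read 3088 to 6851. The part of these control measures in the results was not tested. With replicates 1 and 3 alone the log2 differences were −0.40 for Ugdh, 0.11 for Ext1, 0.17 for Ext2, 0.06 for Ndst2, 0.11 for Hs2st1, 0.09 for Hs6st1, 0.05 for Hs6st2 and −0.44 for Hs3st1, each with limma adjusted p = 1.00.

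No heparan sulfate gene of the 8 passed the adjusted threshold, and neither did any other gene, with 0 calls among all 22626 probe sets (limma). At an unadjusted p under 0.05 there were 0 of the 12 probe sets, against 1.99% of all. The largest difference was that of Hs3st1, at −0.55 (SE 0.23), which did not pass the test. The values of the genotypes overlapped for all 12 probe sets, where 6.18% of all probe sets were without overlap. The difference was above 0 for 8 probe sets and below 0 for 4, with a median of 0.08 against −0.013 over all probe sets. Under the methods' t-test 0 of the 12 had p under 0.10, against 5.86% of all. The study also selected transcripts by Pavlidis Template Matching at p under 0.05, which was not run here. In whole lenses, fewer cells of a type and less RNA per cell cannot be told apart.

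**Figure D1:**
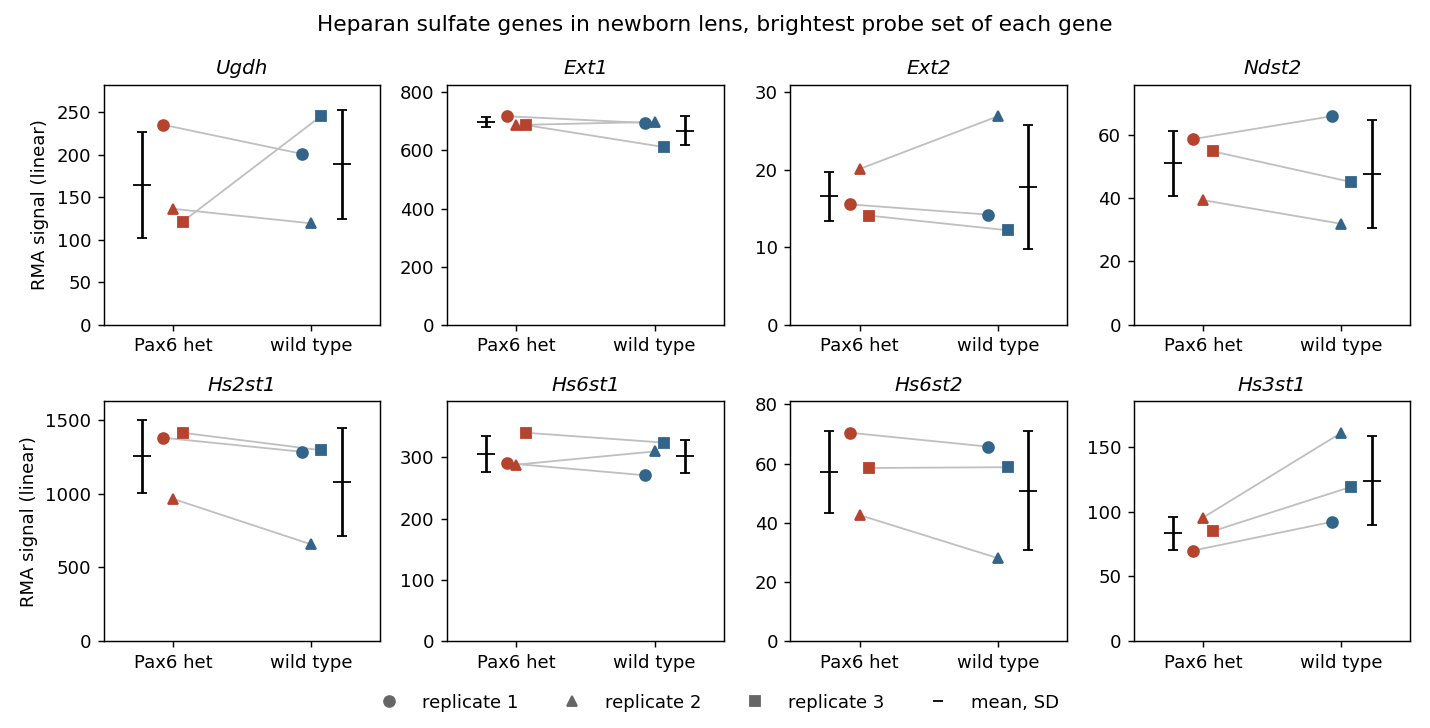
Signal (RMA intensity, linear scale) of the 8 measured genes at their brightest probe set, with Pax6 heterozygous samples at the left and wild type samples at the right, lines joining samples of the same replicate number and black bars for the mean and SD. Hs3st1 was lower in the heterozygous sample of all 3 numbered pairs, and the values of the genotypes overlapped in every panel.

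Ugdh makes UDP-glucuronic acid, a building block of the chain. Its signals were 236, 137 and 121 in heterozygous lenses, against 201, 119 and 246 in wild type lenses. The mean was 164 ± 62.0 in heterozygous and 189 ± 64.0 in wild type lenses (SD, n = 3), and the log2 difference of −0.20 had a 95% interval of −1.04 to 0.64. The numbered pairs differed by 0.23, 0.19 and −1.02 on the log2 scale, so the sign rests on the samples with number 3. The wild type replicate 3 was the highest sample of the 6, and the heterozygous replicate 3 the lowest of its genotype. Without the wild type replicate 3 the difference was 0.02, and without the heterozygous replicate 3 it was −0.01.

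Ext1 and Ext2 form the copolymerase that lengthens the chain. Ext1 had 718, 687 and 687 in heterozygous lenses, against 695, 698 and 611 in wild type lenses. Its difference of 0.06 (SE 0.11) had the narrowest interval of the 8 genes at their brightest probe sets, −0.21 to 0.34. Leaving out 1 sample moved it between 0.0017, without the wild type replicate 3, and 0.10, without the wild type replicate 2. Ext2 had signals of 15.5, 20.1 and 14.1 in heterozygous lenses, against 14.2, 26.9 and 12.2 in wild type lenses. The sample with number 2 was the highest in both genotypes. These values lie near background, since the medians of 33 olfactory receptor probe sets, a guide to background, reached up to 13.4. The Ext2 difference was −0.03 (SE 0.32), and it turned to 0.32 without the wild type replicate 2.

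Ndst2 starts the sulfation by replacing N-acetyl groups with N-sulfate. It had 58.7, 39.4 and 54.9 in heterozygous lenses, against 66.0, 31.9 and 45.1 in wild type lenses. Number 2 was the lowest sample in both genotypes, and the difference of 0.14 (SE 0.29) lay within the spread. It was −0.12 without the wild type replicate 2.

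Hs2st1 adds sulfate to the 2-O position of the uronic acid, which FGF binding uses. Its brightest probe set read 1378, 965 and 1412 in heterozygous lenses, against 1284, 656 and 1294 in wild type lenses. The mean was 1252 ± 249 in heterozygous and 1078 ± 366 in wild type lenses (SD, n = 3). All 3 numbered pairs had the higher value in the heterozygous sample, by 0.10, 0.56 and 0.13 on the log2 scale, and the difference was 0.26 (SE 0.31, limma adjusted p = 1.00). The pair with number 2 held the largest gap. The sign turned to −0.06 without the wild type replicate 2. The other probe sets of Hs2st1 gave differences of 0.09 and 0.30, from median signals of 29.4 and 22.5.

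Hs6st1 and Hs6st2 add sulfate to the 6-O position of glucosamine. Hs6st1 read 291, 288 and 340 in heterozygous lenses, against 271, 310 and 324 in wild type lenses. The means, 306 ± 29.4 in heterozygous and 302 ± 27.6 in wild type lenses, differed by 0.02 on the log2 scale with an interval of −0.30 to 0.34. The sign was −0.06 without the heterozygous replicate 3 and −0.05 without the wild type replicate 1. The brightest Hs6st2 probe set read 70.4, 42.6 and 58.5 in heterozygous lenses, against 65.8, 28.1 and 58.8 in wild type lenses. Number 2 was again the lowest sample in both genotypes. The difference was 0.23 (SE 0.36), and it turned to −0.15 without the wild type replicate 2. The other 2 probe sets of Hs6st2 had median signals of 9.98 and 8.44, under the highest olfactory receptor median, and differences of −0.11 and 0.09.

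Hs3st1 adds the 3-O sulfate that creates the antithrombin-binding site of heparan sulfate. Its signals were 69.9, 95.4 and 84.9 in heterozygous lenses, against 92.1, 161 and 119 in wild type lenses. The heterozygous mean of 83.4 ± 12.8 was 67.3% of the wild type mean of 124 ± 34.6 (SD, n = 3). The genotypes overlapped, because the heterozygous replicate 2 was above the wild type replicate 1. Within the numbered pairs the heterozygous sample was lower in all 3, with log2 differences of −0.40, −0.75 and −0.49. The limma difference was −0.55 with an interval of −1.10 to 0.01 (unadjusted p = 0.0537, adjusted p = 1.00). Without 1 sample it lay between −0.74, without the wild type replicate 1, and −0.34, without the wild type replicate 2. In the fit blocked on the replicate number the difference kept its value and the interval narrowed to −0.82 to −0.27 (limma unadjusted p = 0.0030, adjusted p = 0.315). Under this replicate block 1 of the 12 probe sets had an unadjusted p under 0.05, against 9.03% of all probe sets, and 0 passed the adjusted threshold, against 0.00884%. Hs3st1 is on the list of transcripts that the study chose on these samples, which therefore gives no independent evidence of its direction. It did not pass the methods' bound of 0.10 here, on log2 or on linear signals. Whether template matching put it on the list was not tested.

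**Figure D2:**
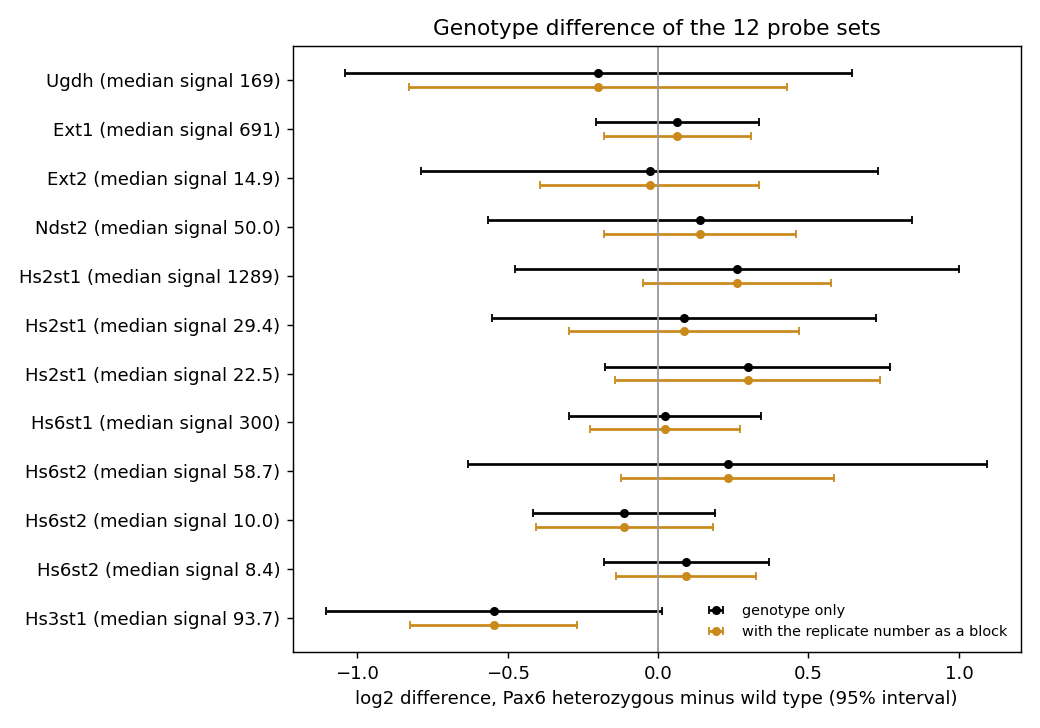
Log2 difference, Pax6 heterozygous minus wild type, of the 12 probe sets with 95% intervals from limma with genotype alone (black) and with the replicate number as a block (orange), labelled with the median signal over the 6 arrays. The Hs3st1 interval with the block was −0.82 to −0.27, and the other 11 blocked intervals held 0.

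A same-signed difference in all 3 numbered pairs was seen for 3 of the 12 probe sets, against 30.9% of all probe sets. Hs3st1 was lower in the 3 pairs, where 17.1% of all probe sets were, and one probe set each of Hs2st1 and Hs6st2 was higher, where 13.8% were. The Hs6st2 one lay at background.

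Several of these genes followed the replicate number in both genotypes. An F test of the replicate number, added after the values were seen, passed the adjusted threshold for 4 of 12 probe sets (33.3%), against 19.4% of all. These were the brightest probe sets of Hs6st2 (limma adjusted p = 0.0288), Hs2st1 (0.0320), Ndst2 (0.0397) and Ext2 (0.0483). Ndst2, Hs2st1 and Hs6st2 were lowest in number 2 of both genotypes, and Ext2 was highest there. Of the 12 probe sets, 4 were lowest and 2 highest in number 2 of both genotypes, against 22.4% and 21.2% of all probe sets, so many other genes showed the same pattern. Among probe sets with a median signal of at least 50 the test passed for 2 of 6 heparan sulfate probe sets and for 35% of all, so the share is close to the background. The 2 arrays with number 2 are those with the high actin control, and whether these are related was not tested.

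**Figure D3:**
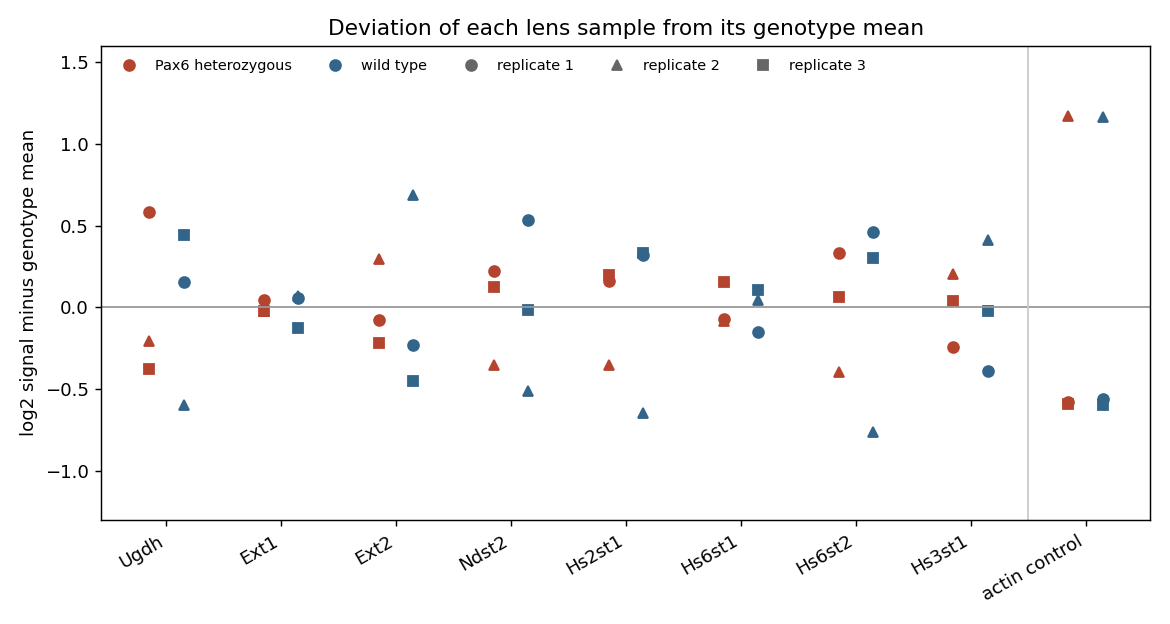
Deviation of each sample from its genotype mean on the log2 scale, by replicate number, for the 8 genes at their brightest probe set, with Pax6 heterozygous samples in red, wild type samples in blue and the 5′ actin control at the right. Hs2st1, Hs6st2 and Ndst2 were lowest and Ext2 and Hs3st1 were highest in replicate 2 of both genotypes.

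The rest of the pathway was read from a list of 50 further genes, of which 40 were measured, each at its brightest probe set. The difference was above 0 for 18 and below 0 for 22, with a median of −0.07 against −0.01 over all genes. At the adjusted threshold there were 0 calls among the 40 genes and 0 among all 12393. At an unadjusted p under 0.05 there were 0 higher and 2 lower, Idua and Hspg2, against 1.12% of all genes higher, 1.12% lower and 2.24% in both directions. The genotypes were without overlap for 6 genes (15%), 5 of them lower, against 6.07% of all genes without overlap and 3.49% lower. Of these, Extl1 (median signal 11.2) lay at background, and Gpc3 (17.2) and Ids (21.2) were dim. Idua, Hspg2 and Sdc4 were brighter. Under the replicate block 5 genes (12.5%) had an unadjusted p under 0.05, against 9.83% of all genes.

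Of 5 measured linker genes, which build the sugars joining the chain to its protein, the median difference was −0.15. B4galt7, which adds the first galactose, read 246 ± 51.4 in heterozygous and 220 ± 58.4 in wild type lenses (difference 0.18). B3galt6, which adds the second, had a difference of −0.20 at a median signal of 13.1, under the highest olfactory receptor median. Neither passed a test. The polymerase relatives Extl3, which starts the chain, and Extl1 had differences of 0.17 and −0.22. Extl3 read 715 ± 132 in heterozygous and 640 ± 130 in wild type lenses, and Extl1 lay at background in both.

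Of 7 other measured modifying enzymes 1 had a median signal of at least 50, and the median difference was −0.08. Ndst3 and Hs3st3b1, which had the smallest p above and below 0, differed by 0.14 and −0.20 at background signals. Among 8 genes of sugar nucleotide and sulfate supply the median was −0.06. Papss2, which makes the sulfate donor, differed by 0.20, and Slc35d1, a transporter of UDP-sugars, by −0.22.

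Of 6 breakdown genes the median was −0.07. Idua, the lysosomal iduronidase that removes iduronic acid from the chain end, read 113, 121 and 114 in heterozygous lenses, against 138, 190 and 173 in wild type lenses. All heterozygous samples were under all wild type samples, with a difference of −0.51 (SE 0.15, limma unadjusted p = 0.0124, adjusted p = 1.00). Hgsnat, which acetylates the chain end in lysosomes, differed by 0.24 at a dim median signal of 26.3, with an interval of −0.30 to 0.78.

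The 11 measured core protein genes had a median of 0.11. Hspg2 encodes perlecan, a core protein of the lens capsule, and read 412, 410 and 412 in heterozygous lenses, against 461, 573 and 490 in wild type lenses. The genotypes did not overlap, and the difference was −0.30 (SE 0.12, limma unadjusted p = 0.050, adjusted p = 1.00). Hspg2 too is on the list that the study chose on these samples. Col18a1, the collagen XVIII core protein, read 878, 635 and 610 in heterozygous lenses, against 650, 440 and 431 in wild type lenses. The genotypes overlapped, and all 3 numbered pairs were higher in the heterozygous sample. The difference was 0.49 (SE 0.22, limma adjusted p = 1.00, and 0.301 with the replicate block). Col18a1 is a basement membrane gene that endothelium also expresses, and the 12 endothelium genes had a median difference of 0.43. The part of endothelium in the Col18a1 value was not tested.

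**Figure D4:**
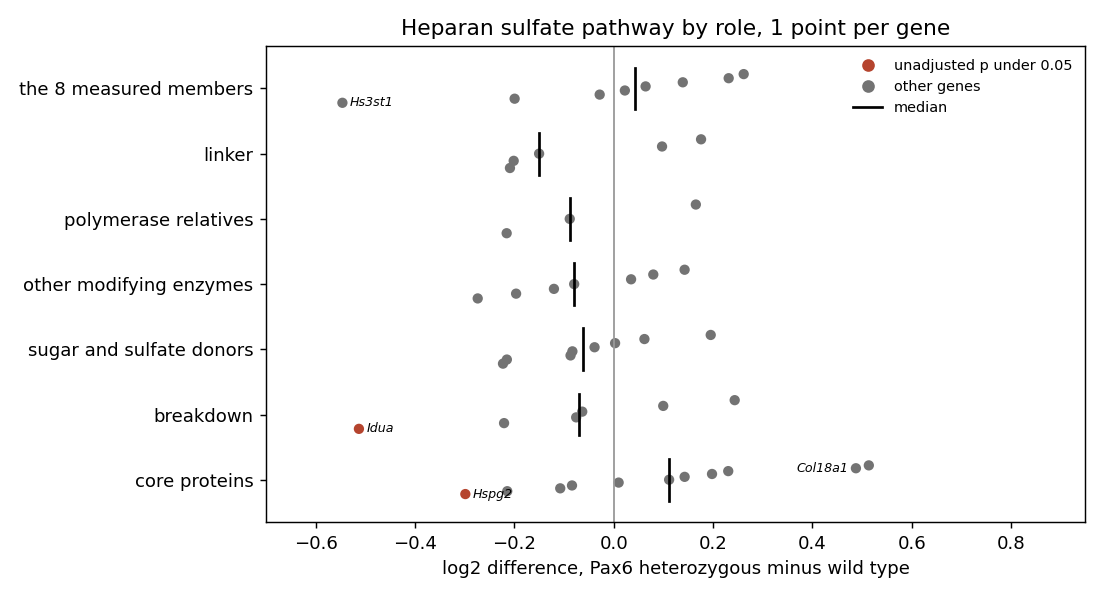
Log2 difference, Pax6 heterozygous minus wild type, with 1 point per gene at its brightest probe set, for the 8 measured genes of the set and 40 other pathway genes by role, with a bar at each median and unadjusted p under 0.05 in red. Idua and Hspg2 were past that bound, and group medians ran from −0.15 for the linker genes to 0.11 for the core proteins.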

How the data were processed

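RNA of both lenses of each mouse was amplified with the NuGEN system and hybridized on Affymetrix arrays. The deposited values are linear signal intensities, 1 per probe set and sample, to which the authors had applied RMA (background correction, normalization between arrays and summary of probes). The table is smaller than the mouse array that the methods name, and which design was used is not settled. The RMA version is not given in the sources used here, and the array holds no counts or depth, so precision rests on 3 mice per genotype. Dim values mix signal with background, which pulls their ratios toward 1.

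The signals were taken to log2 without renormalizing. The 64 manufacturer controls were left out. Genes were assigned through the platform annotation (20380 with a single gene), and symbols were checked through Entrez numbers (20351 matched). Genotypes were compared by lmFit and eBayes of limma 3.58.1, run in R 4.3.3, at a threshold of 0.05 on the Benjamini-Hochberg adjusted p. The main fit was tested on simulated data with independent noise and no replicate number pattern. The replicate block and the F test were not tested in this way. Figures were drawn with matplotlib 3.10.9.

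Pairing by replicate number was checked through each sample's deviations from its genotype mean. Their correlation was 0.645, 0.734 and 0.604 for equal numbers and −0.496 to −0.0751 for different ones. The deviations of a genotype cancel out, so positive values for equal numbers make those for different numbers negative on average. The negative values are therefore not separate evidence of pairing. The bound of 0.1 was passed, so a paired analysis with the replicate block was run. What the numbers share is not stated, and the origin of the pairing is these values. The main fit was without the block.

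The genes, the pathway and marker lists and the tests were chosen with earlier results of these data known. The genes named are all probe sets of the 10 members and, of each pathway group, the gene with the smallest p in each direction. Promoters are from RefSeq tables for GRCm38.p6. The settings varied were the test (the methods' t-test, log2 or linear), quantile normalization or centring on the array median, a filter on median signal (50 or 100), the eBayes prior (trend, robust), weights per array, 1 row per gene, the mean of a gene's probe sets, the replicate block and leaving out each sample.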

Additional observations from a re-analysis of the deposited data

How the results depend on the processing

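The 18 alternative settings gave 138 values for the 8 genes, and 126 kept the direction, with differences from −0.74 to 0.46. Several settings change the test or the probe sets entered but not the difference itself. These are the t-test on log2 signals, the replicate block, the eBayes prior, the signal filters and 1 row per gene. For genes with a single probe set, the mean of a gene's probe sets is another. Their directions were fixed in advance, so the count of 126 overstates the stability. No member probe set passed the adjusted threshold under any setting. Hs3st1 stayed below 0, from −0.74 to −0.34, with a lowest adjusted p of 0.315 under the replicate block. The sign turned for Hs6st1 under median centring (−0.0029) and on leaving out 1 sample (range −0.06 to 0.08), and for Ext2 under array weights (0.03), with replicates 1 and 3 only (0.17) and on leaving out 1 sample (−0.26 to 0.32). It also turned on leaving out 1 sample for Hs2st1 (−0.06 to 0.44), Hs6st2 (−0.15 to 0.46), Ndst2 (−0.12 to 0.40) and Ugdh (−0.50 to 0.02), while Ext1 stayed above 0 (0.0017 to 0.10). The cause was not tested.

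The 0 member probe sets with an unadjusted p under 0.05 became 1 under quantile normalization, median centring and the replicate block, which was Hs3st1 each time, and 1 with replicates 1 and 3 only, which was a dim probe set of Hs2st1. Leaving out 1 sample gave 0 to 1, with Hs3st1 past it without the wild type replicate 1 and the dim Hs2st1 probe set without the heterozygous replicate 2. The 2 further pathway genes became 5 under the replicate block, 4 under the methods' t-test on log2 signals, 1 under quantile normalization, a median signal of at least 50 or 100, array weights or 1 row per gene, and 0 under the intensity trend or with replicates 1 and 3 only. Leaving out 1 sample gave 1 to 3. The use of replicates 1 and 3 only and the F test of the replicate number were chosen after seeing the data. The precision is that of 3 mice per genotype, and 0 of all 22626 probe sets passed the adjusted threshold without the block.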
